A study of Danio rerio with 12 samples.

Results

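The genes examined here are the hormones and transcription factors of the pancreatic islet in zebrafish larvae with and without Elmo1. They were chosen by name and comprise the insulin genes ins and insb, the glucagon genes gcga and gcgb, the somatostatin genes sst1.1 and sst2, and the transcription factors pdx1, neurod1, mnx1 and pax6b. The 10 names matched 11 of the 32520 Ensembl gene identifiers measured. For 7 names the symbol itself was found, ignoring case. The other 3 were found under the upper-case name of their orthologue, gcgb as GCG, sst1.1 as SST and pax6b as PAX6. PAX6 is the name of 2 identifiers, ENSDARG00000045936 and ENSDARG00000103379, and as the symbols do not tell the zebrafish copies apart, both were kept.

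RNA-seq was done on whole larvae, collected 120 hours after fertilization, in 6 elmo1-/- and 6 elmo1+/+ samples, each a pool of 30 larvae. The elmo1-/- larvae carry a CRISPR/Cas9-induced frameshift insertion in elmo1, which encodes an adaptor protein that activates the small GTPase Rac1, and the elmo1+/+ larvae carry the wild type allele. Both genotypes belong to the reporter line Tg(fli1:EGFP), in which endothelial cells express EGFP, and the knockout line rests on a single mutant allele. Larvae of this stage were raised with or without PTU, an inhibitor of pigmentation, and which of these applied to the sequenced pools is not given in the sources used here.

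The islet is the endocrine part of the pancreas. Its beta cells release insulin, which lowers blood glucose, its alpha cells release glucagon, which raises it, and its delta cells release somatostatin, which inhibits the release of both. In zebrafish, islet cells arise in the embryo from the foregut endoderm, and Pdx1, NeuroD1, Mnx1 and Pax6 are factors of endocrine cell formation and identity. The hormone gene ins marks islet cells closely, whereas neurod1, pax6b and mnx1 are also active in neurons. Of these, neurod1 and pax6b are active widely in brain and retina and mnx1 in motor neurons. How much of the RNA of the other genes came from outside the islet in these whole larvae was not tested. The study asked about glucose homeostasis in these mutants because Rac1 takes part in insulin release, and the comparison below addresses whether the islet genes differed between genotypes in larvae.

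Each sample held between 20800000 and 21800000 expected counts. TPM, a share of all transcripts after division by transcript length, was used to compare levels between genes, and CPM, a share of all counts scaled by TMM factors, and edgeR's quasi-likelihood test on rounded counts were used to compare genotypes. A count of 0 in a sample allows up to 3 counts, or 0.137 to 0.150 CPM, counting error only. The targeted gene elmo1 (ENSDARG00000098753) spanned 97.1 to 119.7 CPM in elmo1-/- samples, with a median of 107.4, and 121.7 to 143.3 CPM in elmo1+/+ samples, with a median of 127.8, so that the genotypes did not overlap. Its log2 fold change was -0.26 (SE 0.059; adjusted p = 0.137 by edgeR). Each of the 66 sample pairs showed differences beyond counting noise. The pools are taken as separate samples from their labels, so p-values measure the spread between these pools.

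0 of the 10 identifiers that passed the filter on low counts were called as changed in elmo1-/- larvae (quasi-likelihood test of edgeR, p adjusted after Benjamini and Hochberg under 0.05), where 0.234% of all 21830 genes tested were called. DESeq2 and limma-voom also called 0 of them, where they called 0.444% and 0.224% of all genes. The genotypes overlapped in CPM for all 10, against 0.513% of all genes tested whose genotypes did not overlap. The insulin, glucagon and somatostatin genes that passed the filter had negative log2 fold changes, pdx1, neurod1, mnx1 and PAX6 ENSDARG00000103379 had positive ones, and PAX6 ENSDARG00000045936 had a negative one. Only sst2 had an unadjusted p under 0.05, as did 6.16% of all genes tested. With 0.234% of all genes called, 0 calls among 10 identifiers do not show that these were unchanged. The targeted gene elmo1 itself was not called by edgeR (adjusted p = 0.137). In whole larvae, the number of islet cells and the RNA per cell cannot be told apart.

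Insulin, the hormone of beta cells, was measured first. ins (ENSDARG00000035350) ranged from 14.2 to 32.8 TPM in elmo1-/- samples, with a median of 26.5 TPM, and from 16.9 to 42.8 TPM in elmo1+/+ samples, with a median of 31.4 TPM. The pools fell widely apart within each genotype. 2 elmo1-/- pools, samples 4 and 6, lay below every elmo1+/+ pool, 3 elmo1+/+ pools lay above every elmo1-/- pool, and elmo1+/+ sample 3 lay close to them at 16.9 TPM. In edgeR the log2 fold change was -0.33 (SE 0.22, adjusted p = 0.928, n = 6 each), and the exact permutation test on log2 CPM gave p = 0.193 (two-sided). The 95% interval of the difference reached from 0.576-fold to 1.09-fold and thus holds both a marked decrease and no change. Leaving out 1 pool moved the log2 fold change between -0.46 without elmo1+/+ sample 3 (unadjusted p = 0.0308 and adjusted p = 0.790 by edgeR) and -0.19 without elmo1+/+ sample 2.

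The second insulin gene insb (ENSDARG00000034610) was close to the limit of detection. It had at most 4 counts in an elmo1-/- sample and at most 3 counts in an elmo1+/+ sample, and its counts summed to 12 in elmo1-/- samples (exact Poisson 95% interval 6.2 to 21.0) and to 7 in elmo1+/+ samples (2.81 to 14.4), intervals that cover counting error only. 1 of 6 elmo1-/- samples and 2 of 6 elmo1+/+ samples had a count of 0. It did not pass the filter, and no fold change is given. Insulin transcripts at this stage were thus counted almost entirely under ins.

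The glucagon genes encode the precursor from which alpha cells cut glucagon. gcga (ENSDARG00000079296) ranged from 3.33 to 6.02 TPM in elmo1-/- samples, with a median of 4.86 TPM, and from 3.44 to 6.52 TPM in elmo1+/+ samples, with a median of 5.16 TPM. These ranges nearly coincided, and the log2 fold change was -0.092 (SE 0.16; adjusted p = 0.983 by edgeR, n = 6 each). The paralogue gcgb (ENSDARG00000040907, listed as GCG) ranged from 2.36 to 4.38 TPM in elmo1-/- samples, with a median of 3.27 TPM, and from 2.68 to 5.40 TPM in elmo1+/+ samples, with a median of 3.44 TPM. It rested on 17 to 39 counts per sample, and its log2 fold change was -0.16 (SE 0.22; adjusted p = 0.980 by edgeR). The 95% intervals allowed 0.746-fold to 1.18-fold for gcga and 0.653-fold to 1.23-fold for gcgb.

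Among the somatostatin genes, sst1.1 (ENSDARG00000040799, listed as SST) was steady. It ranged from 19.6 to 25.3 TPM in elmo1-/- samples, with a median of 23.7 TPM, and from 20.9 to 28.3 TPM in elmo1+/+ samples, with a median of 24.3 TPM. Its log2 fold change of -0.016 (SE 0.093; adjusted p = 0.993 by edgeR) had a 95% interval from 0.861-fold to 1.14-fold, and without elmo1-/- sample 5, the lowest pool, it was 0.046.

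sst2 (ENSDARG00000014190) had the largest absolute fold change of the 10 identifiers tested. It ranged from 1.52 to 3.50 TPM in elmo1-/- samples, with a median of 2.43 TPM, and from 2.47 to 6.72 TPM in elmo1+/+ samples, with a median of 3.49 TPM. 3 elmo1-/- pools lay below every elmo1+/+ pool, and 3 elmo1+/+ pools lay above every elmo1-/- pool. The log2 fold change was -0.66 (SE 0.27; unadjusted p = 0.0296 and adjusted p = 0.748 by edgeR, n = 6 each), and the exact permutation test on log2 CPM gave p = 0.0455 (two-sided), so the difference did not pass among all genes. The gene rested on 10 to 44 counts per sample. The highest value belonged to elmo1+/+ sample 2, which was also the highest pool for ins. Without this pool the log2 fold change was -0.41 (unadjusted p = 0.101 by edgeR). The unadjusted p was also above 0.05 without elmo1-/- sample 3, 4 or 6 (0.0506, 0.0659 and 0.0626 by edgeR), and it was 0.0149 without elmo1+/+ sample 3.

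**Figure D1:**
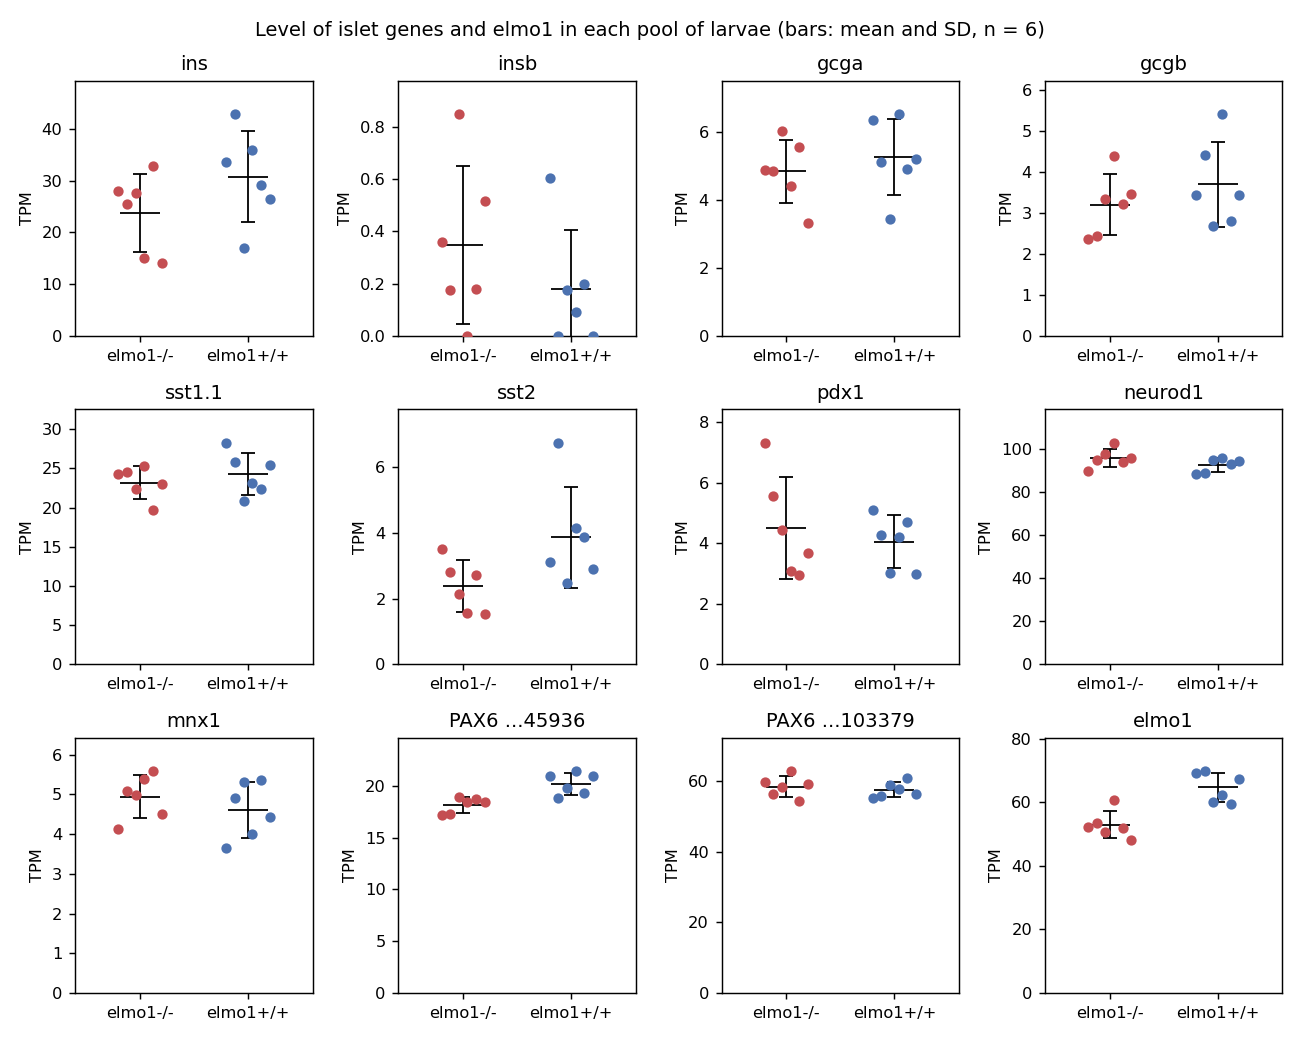
Level in TPM (y axis, from 0) of the 11 islet identifiers and of elmo1 in each pool, with 6 elmo1-/- pools on the left and 6 elmo1+/+ pools on the right of each panel; bars give mean and SD, and the 2 PAX6 identifiers are marked by their last digits. The genotypes overlap in every panel, that of elmo1 included, and ins spans 14.2 to 32.8 TPM in elmo1-/- and 16.9 to 42.8 TPM in elmo1+/+ pools.

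The transcription factors were then compared. pdx1 (ENSDARG00000002779), a factor of pancreas formation that also activates insulin transcription in beta cells, ranged from 2.95 to 7.32 TPM in elmo1-/- samples, with a median of 4.06 TPM, and from 2.98 to 5.10 TPM in elmo1+/+ samples, with a median of 4.24 TPM. 2 elmo1-/- pools, samples 1 and 2, lay above every elmo1+/+ pool, and elmo1-/- sample 5 lay just below every elmo1+/+ pool. The remaining elmo1-/- pools lay within the elmo1+/+ range. The log2 fold change was 0.21 (SE 0.21; adjusted p = 0.968 by edgeR, n = 6 each), and it was 0.033 without elmo1-/- sample 1, the highest pool, and 0.32 without elmo1-/- sample 5, the lowest. Its median was lower in elmo1-/- samples whereas its mean was higher, at 4.51 ± 1.68 TPM in elmo1-/- and 4.05 ± 0.87 TPM in elmo1+/+ samples (SD).

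neurod1 (ENSDARG00000019566), a factor of endocrine and neuronal differentiation, was the most abundant of the 11 identifiers. It ranged from 89.7 to 102.7 TPM in elmo1-/- samples, with a median of 95.2 TPM, and from 88.2 to 95.8 TPM in elmo1+/+ samples, with a median of 93.6 TPM. With 3353 to 4035 counts per sample its difference was measured narrowly, with a log2 fold change of 0.097 (SE 0.061; adjusted p = 0.928 by edgeR) and a 95% interval from 0.978-fold to 1.17-fold. mnx1 (ENSDARG00000035984), a factor of beta cells and motor neurons, ranged from 4.12 to 5.58 TPM in elmo1-/- samples, with a median of 5.03 TPM, and from 3.66 to 5.35 TPM in elmo1+/+ samples, with a median of 4.67 TPM. Its log2 fold change was 0.14 (SE 0.12; adjusted p = 0.959 by edgeR).

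Of the PAX6 identifiers, which encode a factor of islet, eye and brain formation, ENSDARG00000103379 ranged from 54.2 to 62.7 TPM in elmo1-/- and from 55.1 to 60.7 TPM in elmo1+/+ samples, with medians of 58.6 TPM in elmo1-/- and 57.1 TPM in elmo1+/+ samples. By edgeR it differed by a log2 fold change of 0.051 (SE 0.061; adjusted p = 0.973). ENSDARG00000045936 ranged from 17.2 to 19.0 TPM in elmo1-/- samples, with a median of 18.5 TPM, and from 18.8 to 21.4 TPM in elmo1+/+ samples, with a median of 20.4 TPM. By TPM 5 of 6 elmo1-/- pools lay below every elmo1+/+ pool, and the exact permutation test on log2 TPM gave p = 0.00433 (two-sided). By CPM its log2 fold change was -0.041 (SE 0.051; adjusted p = 0.973 by edgeR) and the exact permutation test gave p = 0.340 (two-sided), while limma on log2(TPM + 1) gave -0.14 (SE 0.052, adjusted p = 0.606). The difference by TPM thus did not pass among all genes, and it was larger by TPM than by counts. The median log2 fold change over all genes was also lower by TPM, at -0.038 in the limma fit on log2(TPM + 1) and 0.0043 in edgeR. The effective length, that is count over TPM relative to the median gene of the sample, was 2.19 ± 0.08 in elmo1-/- and 2.11 ± 0.10 in elmo1+/+ samples for this identifier (SD, n = 6 each; exact permutation test, p = 0.115).

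**Figure D2:**
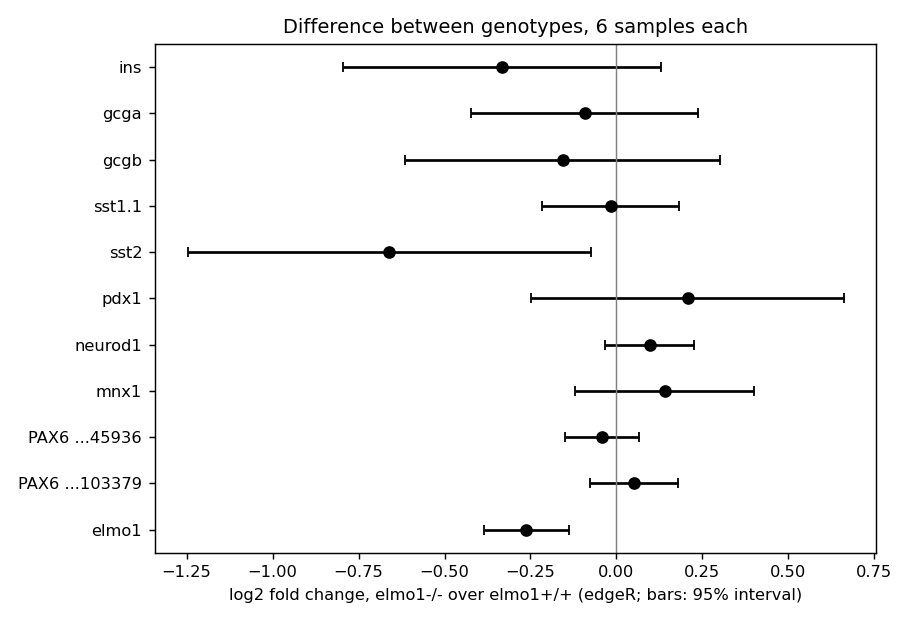
Log2 fold change, elmo1-/- over elmo1+/+ (x axis), of the 10 islet identifiers that passed the filter and of elmo1, with 95% intervals from edgeR (6 samples per genotype). The intervals are narrow for neurod1 and the PAX6 identifiers and wide for sst2, ins and pdx1; the interval of sst2 ends at -0.075, yet its adjusted p was 0.748.

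By TPM the order of the genes was nearly the same in both genotypes. In elmo1-/- larvae neurod1 averaged 95.7 ± 4.3 TPM and PAX6 ENSDARG00000103379 58.4 ± 2.9 TPM, and these did not overlap with each other or with any of the rest (SD, n = 6). ins followed with 23.8 ± 7.5 TPM and sst1.1 with 23.2 ± 2.1 TPM, and the ranges of these overlapped, with ins above sst1.1 in 4 of 6 pools. In elmo1+/+ larvae neurod1 averaged 92.5 ± 3.2 TPM, PAX6 ENSDARG00000103379 57.5 ± 2.1 TPM, ins 30.8 ± 8.9 TPM and sst1.1 24.3 ± 2.7 TPM, with ins above sst1.1 in 5 of 6 pools. PAX6 ENSDARG00000045936 came next, at 18.2 ± 0.8 TPM in elmo1-/- and 20.2 ± 1.1 TPM in elmo1+/+ larvae. Its range lay within that of ins in both genotypes and met that of sst1.1 in elmo1+/+ larvae. gcga, mnx1, pdx1, gcgb and sst2 formed a lower group between 2.38 and 4.94 TPM on average in elmo1-/- and between 3.70 and 5.25 TPM in elmo1+/+ larvae. Each of these overlapped with its neighbour in the order, and mnx1 led this group in elmo1-/- and gcga in elmo1+/+ larvae without a difference beyond the spread. insb was last, and no pool of either genotype had as much insb as any other of these genes.

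Relative to ins, the other hormones stood in these proportions. The TPM ratio of gcga to ins had a median of 0.204 in elmo1-/- pools, with a range of 0.169 to 0.293, and a median of 0.185 in elmo1+/+ pools, with a range of 0.119 to 0.203. The gcgb to ins ratio had a median of 0.109 in elmo1-/- pools, ranging to 0.290, and of 0.117 in elmo1+/+ pools, ranging to 0.158. The ratio of sst2 to ins had a median of 0.106 in elmo1-/- and 0.124 in elmo1+/+ pools. sst1.1 stood at 0.916 times ins in elmo1-/- pools and at 0.804 times ins in elmo1+/+ pools (medians), and exceeded ins in 2 of 6 elmo1-/- and 1 of 6 elmo1+/+ pools. The ranges of these ratios overlapped between genotypes for each hormone, and no test was made on them.

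The genes differed in how far they varied between pools of 1 genotype. For ins the coefficient of variation in CPM was 28.4% in elmo1-/- and 29.9% in elmo1+/+ pools, where counting alone would give 8.79% and 7.72% at these counts. For gcga it was 20.6% in elmo1-/- and 18.8% in elmo1+/+ pools, against 10.4% and 9.93% from counting, and for pdx1 36.0% in elmo1-/- and 19.1% in elmo1+/+ pools, against 11.5% and 12.2%. These genes therefore varied between pools of 30 larvae by more than counting error. sst1.1 varied by 11.5% in elmo1-/- and 10.7% in elmo1+/+ pools, against 6.87% and 6.70% from counting. neurod1 had the smaller spread of 7.73% in elmo1-/- and 6.24% in elmo1+/+ pools, but with its high counts counting alone would give only 1.62% and 1.64%. In TPM the spread of neurod1 was lower, at 4.51% in elmo1-/- and 3.51% in elmo1+/+ pools, so its size depends on the measure. For gcgb the spread in CPM was 24.9% in elmo1-/- and 27.5% in elmo1+/+ pools, against 20.6% and 19.2% from counting, so that counting error was a large part of it.

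To see whether the genes varied together, the log2 CPM of 9 identifiers was compared with that of ins over the 12 pools, with p-values adjusted over the 9 relations. gcga followed ins with Pearson's r = 0.87 (permutation p = 0.00037, adjusted p = 0.00211) and Spearman's rho = 0.87 (permutation p = 0.0005, adjusted p = 0.0045). Within genotypes r was 0.83 in elmo1-/- (exact permutation p = 0.0375) and 0.92 in elmo1+/+ pools (exact permutation p = 0.00972). Without the 2 pools farthest from the median of ins, elmo1-/- samples 4 and 6, r was 0.83 (permutation p = 0.00617). 3 pools, these and elmo1+/+ sample 3, lay apart from the rest with low ins. Over the other 9 pools r was 0.54 (exact permutation p = 0.131), so the relation of gcga to ins rests in good part on the 3 pools in which both were low.

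sst2 also followed ins, with r = 0.84 (permutation p = 0.00047, adjusted p = 0.00211), while rho was 0.66 (permutation p = 0.0242, adjusted p = 0.0727). Within genotypes r was 0.82 in elmo1-/- and 0.85 in elmo1+/+ pools (exact permutation p = 0.0694 and 0.0542). Without the 2 farthest pools r was 0.70 (permutation p = 0.0509), and the relation thus no longer passed the threshold without them, while over the 9 pools other than the 3 lowest r was 0.79 (exact permutation p = 0.0337). In these 3 pools sst2 had 10, 10 and 16 counts. The other 9 pools include elmo1+/+ sample 2, the highest pool for both genes. It had sst2 at 2.09 CPM, against 0.734 to 1.19 CPM in the other elmo1+/+ pools. How far the relation rests on this pool was not tested.

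Such a relation was not seen for the other hormone genes over all pools. For sst1.1 r was -0.02 (permutation p = 0.961) and for gcgb 0.13 (permutation p = 0.690). The value for gcgb rests on elmo1-/- samples 4 and 6, since without them r was 0.65 (permutation p = 0.0430, not adjusted). Over the 9 pools other than the 3 lowest for ins, r was 0.73 for gcgb (exact permutation p = 0.0209, not adjusted), where gcga had 0.54. For sst1.1 it was 0.07 over these 9 pools (exact permutation p = 0.833). Within genotypes the correlations of gcgb and sst1.1 with ins had opposite signs. They were -0.71 in elmo1-/- and 0.75 in elmo1+/+ pools for gcgb (exact permutation p = 0.142 and 0.0722). For sst1.1 they were -0.62 in elmo1-/- and 0.61 in elmo1+/+ pools (exact permutation p = 0.153 and 0.211). The difference between genotypes in these correlations was not tested. neurod1 and PAX6 ENSDARG00000103379 ran opposite to ins, with r of -0.67 and -0.70 (permutation, adjusted p = 0.0423 and 0.0346) and rho of -0.69 and -0.62 (permutation, adjusted p = 0.0727 and 0.0838). Without the 2 farthest pools r was -0.41 and -0.42 (permutation p = 0.243 and 0.225), so that neither passed without elmo1-/- samples 4 and 6. Over the 9 pools other than the 3 lowest for ins, r was -0.43 for neurod1 (exact permutation p = 0.251). For PAX6 ENSDARG00000103379 it was only -0.14 over these 9 pools (exact permutation p = 0.714). Within genotypes r was -0.68 in elmo1-/- and -0.51 in elmo1+/+ pools for neurod1 (exact permutation p = 0.101 and 0.285), and -0.80 in elmo1-/- and -0.54 in elmo1+/+ pools for PAX6 ENSDARG00000103379 (exact permutation p = 0.0694 and 0.258). pdx1, mnx1 and PAX6 ENSDARG00000045936 had r between -0.38 and 0.29 and did not pass.

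**Figure D3:**
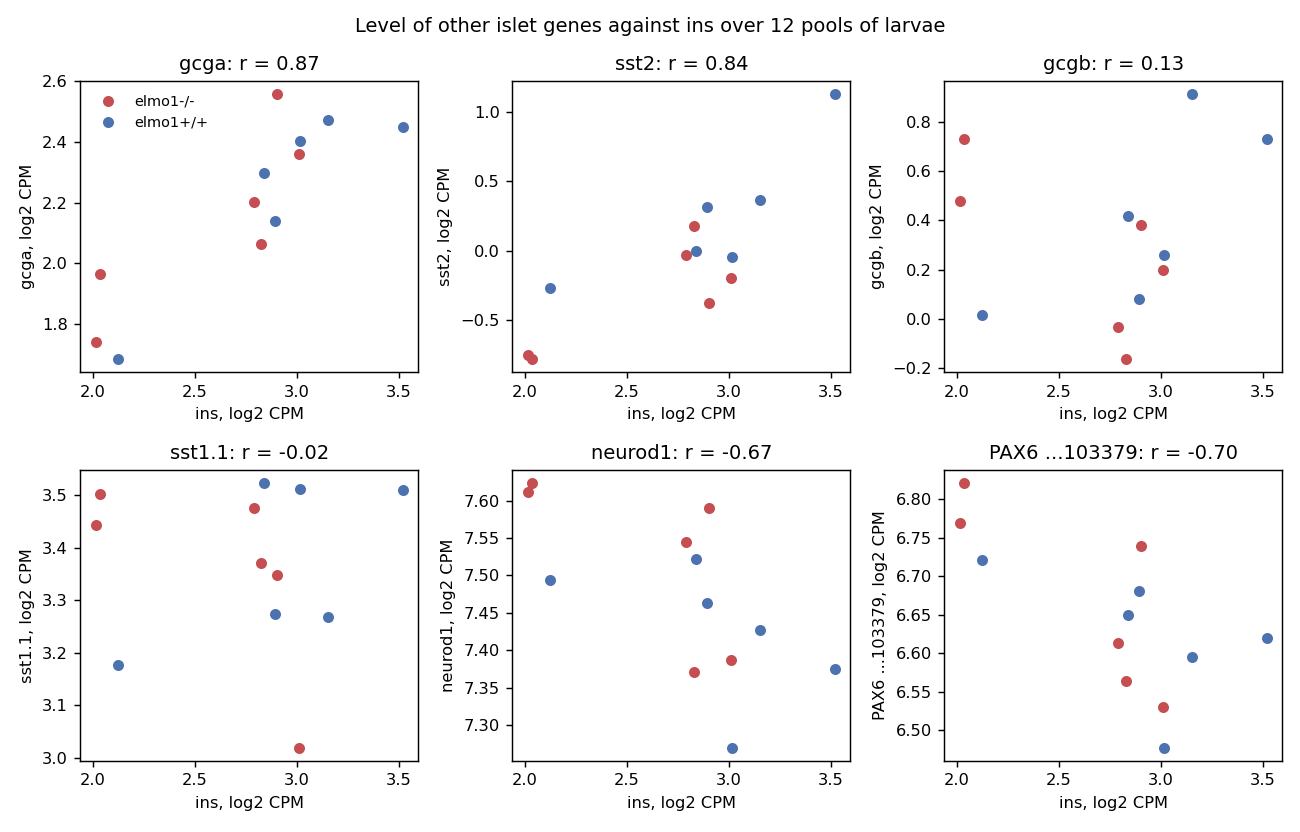
Log2 CPM of 6 islet identifiers (y axes) against log2 CPM of ins (x axes) in the 12 pools, elmo1-/- in red and elmo1+/+ in blue; the axes do not start at 0. gcga (r = 0.87) and sst2 (r = 0.84) run with ins, and gcgb and sst1.1 scatter without a common direction over all 12 pools. Without the 3 pools at the left, gcgb rises with ins (r = 0.73). neurod1 and PAX6 ENSDARG00000103379 run down with ins through these 3 pools.

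The wider machinery of islet cells was described with 4 lists of genes chosen by their known roles. Of 12 identifiers for other islet and gut hormones and further peptides such as NPY and urp1, 10 were tested and 0 were called in either direction (edgeR, adjusted p under 0.05, 0 with an unadjusted p under 0.05). Their median log2 fold change was 0.015, beside 0.0043 over all genes tested. The most abundant were the gut and islet peptides pyya (ENSDARG00000053449), at 22.3 ± 1.2 TPM in elmo1-/- and 22.1 ± 3.1 TPM in elmo1+/+ samples, CCK (ENSDARG00000070810), cholecystokinin, at 20.1 ± 1.7 TPM in elmo1-/- and 18.7 ± 2.3 TPM in elmo1+/+ samples, and PYY (ENSDARG00000035832), at 14.9 ± 3.1 TPM in elmo1-/- and 15.8 ± 4.1 TPM in elmo1+/+ samples (SD, n = 6 each). ghrl, which encodes the hormone ghrelin of epsilon cells, and insl5b did not pass the filter and are named for that reason, ghrl with 0.542 ± 0.543 TPM in elmo1-/- and 0.535 ± 0.323 TPM in elmo1+/+ samples.

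Of 23 identifiers for hormone processing, secretory granules and the coupling of glucose to release, 22 were tested and 0 were called (edgeR), with a median log2 fold change of -0.0071. 2 had an unadjusted p under 0.05, and these are named because of it. PCSK2 (ENSDARG00000019451), the prohormone convertase that cuts glucagon and insulin precursors, stood at 12.5 ± 1.8 TPM in elmo1-/- and 15.0 ± 1.3 TPM in elmo1+/+ samples, with a log2 fold change of -0.21 (SE 0.073; adjusted p = 0.611 by edgeR). SLC30A8 (ENSDARG00000100917), the zinc transporter of insulin granules, stood at 1.00 ± 0.11 TPM in elmo1-/- and 1.27 ± 0.16 TPM in elmo1+/+ samples, with a log2 fold change of -0.30 (SE 0.12; adjusted p = 0.740 by edgeR). The most abundant genes of this list, both SNAP25 copies of the vesicle fusion machinery at 228 ± 13 TPM and 139.2 ± 5.9 TPM in elmo1-/- samples and 234 ± 10 TPM and 144.8 ± 8.1 TPM in elmo1+/+ samples, are also general neuronal genes.

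Of 16 identifiers for further islet transcription factors, 14 were tested, 0 were called and 0 had an unadjusted p under 0.05 (edgeR), with a median log2 fold change of 0.030. They include INSM1 (ENSDARG00000091756), a zinc finger factor of endocrine and neuronal precursors, at 45.1 ± 4.6 TPM in elmo1-/- and 48.2 ± 3.9 TPM in elmo1+/+ samples, and ISL1 (ENSDARG00000004023), a factor of islet cells and motor neurons, at 37.5 ± 1.8 TPM in elmo1-/- and 38.0 ± 1.9 TPM in elmo1+/+ samples. RFX6 and pax4, factors of endocrine precursors, are named because they did not pass the filter. The listed names nkx2.2a, nkx6.1 and nkx6.2 were not found among the symbols, so no values are given for them. Of 13 identifiers for receptors of the islet hormones and of related hormones, among them gipr and the IGF1R identifiers, all were tested and 0 were called (edgeR). 12 of them had a positive log2 fold change, as had 11278 of all 21830 genes, and their median was 0.11. The glucagon receptor gcgrb (ENSDARG00000036272) was the only one with an unadjusted p under 0.05. It stood at 4.24 ± 0.71 TPM in elmo1-/- and 3.49 ± 0.38 TPM in elmo1+/+ samples, with a log2 fold change of 0.32 (SE 0.10; adjusted p = 0.537 by edgeR). The insulin receptor INSR (ENSDARG00000011948) stood at 12.2 ± 0.9 TPM in elmo1-/- and 11.8 ± 0.9 TPM in elmo1+/+ samples, with a log2 fold change of 0.093 (SE 0.052; adjusted p = 0.894 by edgeR). DESeq2 called 0 genes in each of these 4 lists.

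**Figure D4:**
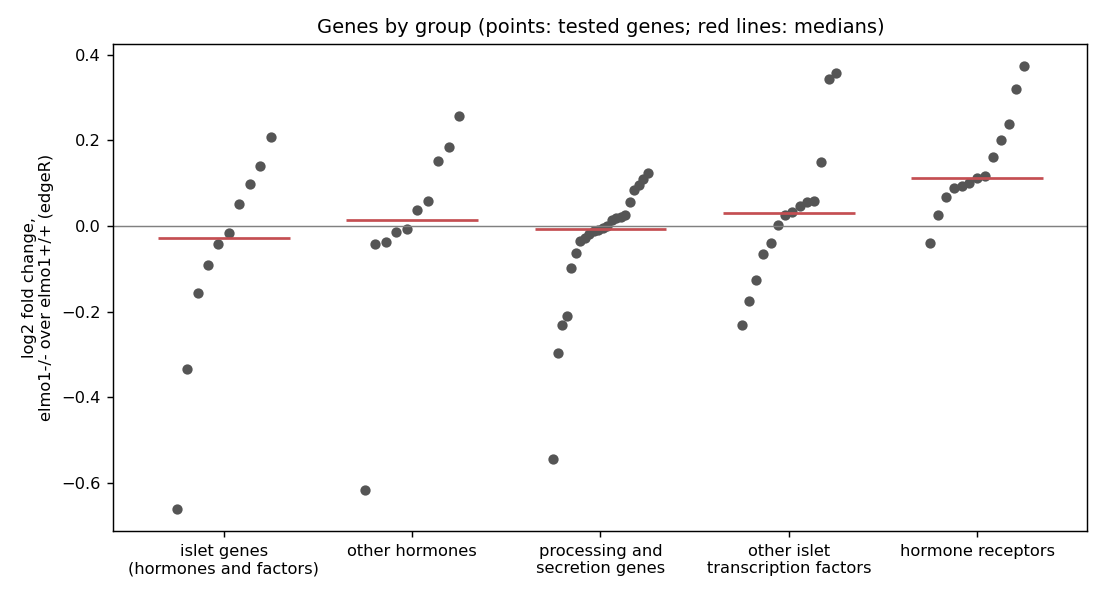
Log2 fold change, elmo1-/- over elmo1+/+ (y axis, edgeR), of each tested gene in the islet genes and in the 4 further lists, with red lines at the medians. The medians lie between -0.029 and 0.11, and 0 of the plotted genes passed the adjusted threshold.

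The rest of the pancreas and the tissues that share these factors were followed with marker lists. Exocrine markers comprised digestive enzymes made by acinar cells around the islet and transcription factors of these cells. These markers summed to 1043 to 2978 TPM in elmo1-/- and 1120 to 4398 TPM in elmo1+/+ pools over 16 identifiers, and 0 of 15 tested were called (edgeR, 1 with an unadjusted p under 0.05). Their median log2 fold change was -0.24, beside 0.0043 over all genes tested. 11 of the 15 had a negative log2 fold change, as had 10552 of all 21830 genes. The sum was highest in elmo1+/+ sample 2 and lowest in elmo1-/- sample 4, which were also the highest pool and one of the lowest pools for ins. The pools with the next highest and next lowest sums differed little in ins. These were elmo1-/- sample 2, with a sum of 2978 TPM and ins at 25.5 TPM, and elmo1+/+ sample 6, with a sum of 1120 TPM and ins at 26.4 TPM. Neuronal markers summed to 1514 to 1751 TPM in elmo1-/- and 1583 to 1857 TPM in elmo1+/+ pools, motor neuron markers to 71.0 to 78.7 TPM in elmo1-/- and 72.8 to 78.7 TPM in elmo1+/+ pools, and photoreceptor and lens markers to 5362 to 6162 TPM in elmo1-/- and 5121 to 6313 TPM in elmo1+/+ pools, with 0 genes called in each and 0 with an unadjusted p under 0.05 (edgeR). No marker of these lists was at 0 in all samples. Their part in the levels of neurod1, mnx1 and PAX6 was not tested. None of the 11 islet genes placed by name in the RefSeq table of the assembly GRCz12tu lay on the chromosome of elmo1.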

How the data were processed

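RNA was isolated with the RNeasy kit, and the BGISEQ-500 platform was used for sequencing. The authors deposited, for each sample, expected counts and TPM per gene. The expected counts were estimated by the authors with kallisto and are not normalized. The deposited TPM values were scaled by the authors to transcript length and to the same sum in each sample. The submitters' processing notes name Trim Galore 0.6.4, kallisto 0.4.6 and the build GRCz11, so reads shared by gene copies are split by estimation. Expected counts were rounded to whole numbers.

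Genes were filtered with filterByExpr (minimum count 10) of edgeR 4.0.16 in R 4.3.3, which left 21830 genes. Genotypes were compared by the quasi-likelihood test of edgeR with TMM factors, and p-values were adjusted after Benjamini and Hochberg over all tested genes, with a threshold of 0.05. Log2 CPM used a prior count of 2. Exact permutation tests covered all 924 relabellings (smallest two-sided p 0.00216), and correlations used 100000 permutations, or all of them for 6 or 9 pools. Alternatives used DESeq2 1.42.0 and limma 3.58.1. The fit was tested on data simulated without changes and with changes larger than those of the islet genes. That test does not show how often changes of their size would be called.

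Symbols came from a table that named 29201 of 32520 identifiers. By symbol, 16 of 19 names were found for further islet transcription factors and 21 of 24 for hormone processing and release. For other hormones 13 of 17 names were found, and for receptors 13 of 15. Names not found, among them iapp, glp1ra and glp1rb, were left out. Members and lists were chosen with earlier results of these data known. Named genes are the members, elmo1, abundant genes of each list (up to 4) and the 5 other genes most like ins. Outside this rule, PCSK2, SLC30A8 and gcgrb were named after their values were seen, for an unadjusted p under 0.05, and ghrl, insl5b, RFX6 and pax4 for failing the filter. Coordinates are not given, as no annotation of GRCz11 was used here.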

Additional observations from a re-analysis of the deposited data

Results flagged for a closer look

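Each tested islet identifier and elmo1 was examined in each genotype for a pool whose gap to its nearest neighbour was a larger share of the whole range than Dixon's 95% critical value for 6 samples. 2 of 22 groups of values held such a pool, where 1.1 are given by chance. For sst1.1, elmo1-/- sample 5 lay at 8.02 CPM, against 10.1 to 11.2 CPM in the other elmo1-/- pools. For sst2, elmo1+/+ sample 2 lay at 2.09 CPM, against 0.734 to 1.19 CPM in the other elmo1+/+ pools.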

How the results depend on the processing

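0 of the islet identifiers tested were called in each of 9 other fits (other factors, DESeq2, limma-voom, other filters, TPM, replicate block) and in each of 12 fits without 1 sample, with adjusted p-values of 0.531 or higher. Over all genes 51 were called, 97 with DESeq2, 60 with the replicate block and 34 to 67 without 1 sample; the cause was not tested. The number of genes called in the 4 lists was 0 in each of the 17 alternatives run on them. Directions held in all fits except for sst1.1, whose log2 fold change ranged from -0.055 to 0.046 without 1 sample. With log2(TPM + 1), the correlations with ins of sst1.1 (r = 0.17) and PAX6 ENSDARG00000045936 (r = 0.25) were positive, and those of neurod1 (r = -0.65, permutation, adjusted p = 0.0673) and PAX6 ENSDARG00000103379 (r = -0.62, permutation, adjusted p = 0.0732) no longer passed. elmo1 passed with DESeq2 (adjusted p = 0.00817) and with none of the other fits. Same-numbered samples deviated together with r over 0.1 in 4 of 6 pairs and not in the other 2, with a mean r of 0.13. Of the 12 samples, 7 correlated best with the sample of their own number. The labels do not say that the numbers pair samples, so the main fit did not use them and the replicate block was an alternative. Whether same-numbered pools shared an origin was not tested. The permutation p-values of the correlations and the exact permutation tests between genotypes treat the 12 pools as exchangeable and take no account of such sharing. Depth limits sst2, gcgb and insb.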

Other observations

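The 5 genes whose log2 CPM ran most like that of ins over the 12 pools, among 17576 genes outside the islet genes described above that had a symbol and averaged 1 log2 CPM or more, were ATP2A3 (ENSDARG00000060978, a calcium pump of the endoplasmic reticulum, r = 0.88), ltk (ENSDARG00000042861, a receptor tyrosine kinase, r = 0.87), cldn7b (ENSDARG00000014047, a claudin of epithelial tight junctions, r = 0.87), heg1 (ENSDARG00000018441, a transmembrane receptor of heart and vessels, r = 0.86) and TWSG1 (ENSDARG00000104244, a secreted modulator of BMP signalling, r = 0.86). These values are given as a ranking only, since the genes were picked for the highest r out of many. None of the 5 was called between genotypes (edgeR, adjusted p of 0.758 or higher). Among all 21829 other genes tested, gcga was number 5 and sst2 number 16 in likeness to ins.

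The summed TPM of 6 marker lists was compared with ins over the 12 pools, a comparison chosen after the data were seen. Exocrine markers had r = 0.65 (permutation p = 0.0212, adjusted p = 0.127 over the 6 lists) and rho = 0.60 (permutation p = 0.0423, adjusted p = 0.254), with r = 0.59 in elmo1-/- and 0.67 in elmo1+/+ pools, and r = 0.52 (permutation p = 0.141) without the 2 pools farthest from the median of ins. Liver markers had r = 0.23, intestinal markers -0.03, neuronal markers -0.20 and motor neuron markers -0.16. Photoreceptor and lens markers had r = -0.45 (permutation p = 0.140, adjusted p = 0.421), with -0.81 in elmo1-/- and -0.32 in elmo1+/+ pools. None passed after adjustment.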
